A study of Mus musculus with 10 samples.

Results

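The genes described here are 10 genes of innate defence and inflammation, chosen by name: Reg3g, Reg3b, Il18, Il6, Pigr, Tlr4, Myd88, Nfkbia, Nos2 and Stat3. Chromatin accessibility was measured at them by ATAC-seq, in which a transposase inserts sequencing adapters into open DNA, and the more open a region is, the more reads it yields. A region with many reads is called a peak, and the authors assigned peaks to genes. Of 245885 peaks with a gene ID, 69 carried the ID of one of these genes. They belonged to 9 of the 10 genes, since no peak carried the ID of Myd88, the adaptor through which most Toll-like receptors signal. The other 9 genes are 9 of 44580 gene IDs that had a peak.

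The cells were intestinal epithelial cells (IECs) purified from 10 mice, 5 of them WT (WT1 to WT5) and 5 KO (KO6 to KO10). KO mice (Zip14-/-) lack the zinc transporter Zip14 (Slc39a14) in the whole body, through a targeted deletion that is not limited to the epithelium, and WT mice (Zip14+/+) came from the same crosses of heterozygous mice, backcrossed to C57BL/6. Both genotypes were, per the study's methods, young adults, female unless stated otherwise, fed the same diet and not fasted, and no treatment is given for these samples. The labels give the duodenum as the tissue, while the methods name the duodenum and upper jejunum, and the cells were sorted by flow cytometry with EpCAM as the epithelial marker. By the study's flow cytometry such preparations were mainly EpCAM+ cells with small fractions carrying blood or vascular markers, and fewer cells of a type and less accessible DNA per cell cannot be told apart in such a sample. The epithelial identity of the cells was not checked against marker genes, because none of 41 marker symbols could be paired with a gene ID here.

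The single layer of intestinal epithelial cells separates the body from the microbes of the gut lumen. These cells sense bacterial products through Toll-like receptors, which act through Myd88 on NF-kappaB, a transcription factor held in the cytoplasm by inhibitors such as the product of Nfkbia. They also respond to cytokines through Stat3, and they answer with secreted antimicrobial lectins of the Reg3 family, with the transport of IgA by the product of Pigr, and with inflammatory mediators such as IL-18 and nitric oxide.

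Raw counts per peak were summed over the peaks of a gene and scaled to a common library size (CPM) with edgeR's TMM factors, which correct for differences in composition between libraries. Total counts were between 5202949 and 15775481 in WT mice and between 4731176 and 6094983 in KO mice, and WT2, with 5202949, was the 1 WT mouse within the range of the KO mice. The peak with the most reads accounted for 5.66% to 14.4% of each library. Slc39a14 could not be paired with a gene ID here, so the genotype labels were not checked through the targeted gene. A single peak of the whole table had at least 5 counts in each WT mouse (8 to 21) and 0 in each KO mouse, and its ID (ENSMUSG00000022094) was not paired with a symbol.

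Accessibility of the Reg3 genes and of Pigr was lower in KO mice. Reg3g, which encodes a lectin that kills Gram-positive bacteria, was at 0.544 times the WT level, Reg3b, which encodes a related lectin active against Gram-negative bacteria, at 0.570 times and Pigr, the receptor that carries IgA into the lumen, at 0.762 times. These 3 of the 9 genes passed an adjusted p of 0.05, all of them lower in KO mice, in the quasi-likelihood test of edgeR, with p adjusted by the Benjamini-Hochberg method over all 36715 genes tested, of which 1.01% passed as lower and 2.9% as higher. With 1 mouse left out in turn, between 0 and 6 of the 9 genes passed, with 0 in 5 of the 10 fits, in each of which 0 of all genes passed, and 6 without WT2, 5 lower and 1 higher, where 3.01% of all genes passed as lower and 5.86% as higher. With 1 surrogate variable in the fit, Reg3b alone passed, where 0.00545% of all genes passed as lower and 0.109% as higher. Of the 9 genes, 8 had a log2 fold change (log2FC, KO against WT) below 0, against 50.5% of all genes, and Tlr4 was the exception. Genes of high abundance mostly lay below 0 in these data, at 65.8% of the genes of like abundance for Reg3g and Il18, 83.3% for Reg3b, Nos2 and Stat3, and 86.2% for Pigr and Nfkbia, against 25.6% for Il6 and 33.7% for Tlr4, so the direction alone says little for the abundant members. At an unadjusted p under 0.05, 7 of the 9 were lower and 1 was higher, where 11.8% of all genes were lower and 15.7% higher. The median log2FC was -0.35 over the 9 genes and -0.00372 over all genes tested. Every KO mouse lay below every WT mouse for 3 genes, Reg3b, Il18 and Stat3, as it did for 2.84% of all genes. No gene of the 9 had all KO mice above all WT mice, against 3.18% of all genes.

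**Figure D1:**
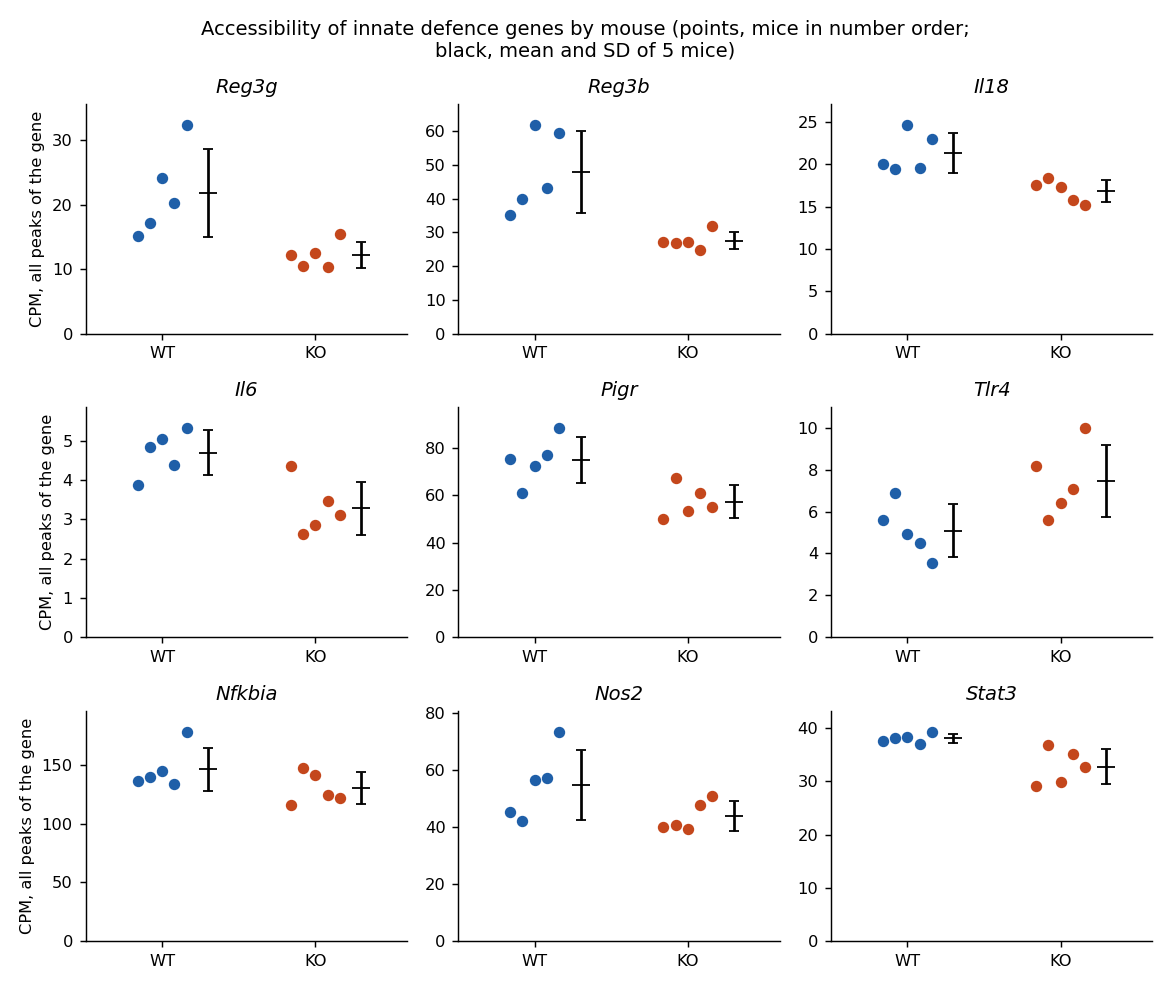
The vertical axis of each panel gives the CPM of all peaks of a gene, from 0, with 1 point per mouse and, in black, the mean and SD of 5 mice per genotype. KO points lie below all WT points for Reg3b, Il18 and Stat3, and the points of the 2 genotypes overlap for the other genes, with Tlr4 alone having the higher mean in KO mice.

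Reg3b (ENSMUSG00000071356) and Reg3g (ENSMUSG00000030017) lie on the same chromosome, 6, in a cluster of Reg genes. In RefSeq on GRCm38.p6, Reg3b spans chr6:78370885-78373466 and Reg3g spans chr6:78466269-78468874, with 92802 bases and 5 annotated genes between them (Reg3d, Reg3a, Reg2, Reg1 and the pseudogene Gm52853). Pigr (ENSMUSG00000026417) spans chr1:130826684-130852249. The 250 bases before the start of each of the 3 genes that passed are printed to show how alike the upstream regions of the 2 Reg3 genes are and which of the motifs searched each of the 3 genes holds. They are RefSeq sequences of GRCm38.p6 in the direction of the gene, of chr6:78370635-78370884 on the plus strand for Reg3b, chr6:78468875-78469124 on the minus strand for Reg3g and chr1:130826434-130826683 on the plus strand for Pigr. Capitals mark matches to the motifs searched.
Reg3b: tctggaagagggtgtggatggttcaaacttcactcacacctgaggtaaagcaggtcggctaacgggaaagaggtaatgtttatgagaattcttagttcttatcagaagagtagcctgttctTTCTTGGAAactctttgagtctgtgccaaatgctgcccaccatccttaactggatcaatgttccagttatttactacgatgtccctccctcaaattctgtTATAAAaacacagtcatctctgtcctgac
Reg3g: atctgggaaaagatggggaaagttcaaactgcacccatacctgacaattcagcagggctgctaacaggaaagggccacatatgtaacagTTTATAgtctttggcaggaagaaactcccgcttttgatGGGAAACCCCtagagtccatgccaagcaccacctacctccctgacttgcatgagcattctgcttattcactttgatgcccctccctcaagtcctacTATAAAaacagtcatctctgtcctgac
Pigr: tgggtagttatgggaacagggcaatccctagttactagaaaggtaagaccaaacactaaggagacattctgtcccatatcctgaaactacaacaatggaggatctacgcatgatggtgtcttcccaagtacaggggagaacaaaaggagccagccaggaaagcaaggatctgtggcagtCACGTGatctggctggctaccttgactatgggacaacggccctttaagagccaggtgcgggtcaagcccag
The peaks are deposited with no coordinates, so it is not known which peak covers these bases.

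The motifs searched, on both strands, were the TATA box TATAAA, the STAT motif TTCNNNGAA, the kappaB consensus of NF-kappaB, the E-box CACGTG and an interferon-type motif of a pair of GAAA elements with 2 bases between them. Reg3b and Reg3g were identical at 173 of 247 aligned bases (70.0%) over this stretch, with 6 gap columns in the alignment. Both had TATAAA shortly before the start, from 29 to 24 bases before it in Reg3b and from 27 to 22 bases before it in Reg3g, a motif held by 12.3% of 32536 promoters of the same length. Reg3g had a further match to TATAAA on the other strand, from 161 to 156 bases before the start. Reg3b had TTCNNNGAA from 129 to 121 bases before the start, which 7.04% of promoters hold. Reg3g had the kappaB consensus from 123 to 114 bases before the start, held by 7.28%, and no match to TTCNNNGAA. Pigr had CACGTG from 71 to 66 bases before the start, held by 6.04%. Of the other members, Il6 had a kappaB match from 44 to 35 bases and Nfkbia from 29 to 20 bases before the start, Il18 had 1 match to TATAAA, Myd88 had 4 motif matches, among them the pair of GAAA elements, which 2.98% of promoters hold, and Stat3 had none of the 5 motifs. The Stat3 stretch, chr11:100939541-100939790, overlaps the gene's span as given below (chr11:100886806-100939594), so part of it lies within the gene. Motifs may overlap, as 2 matches to TATAAA do in Myd88. A match describes the letters and is no evidence of binding. Promoters of 8 of the 10 genes were in the table used, without Nos2 and Tlr4.

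Reg3g had 15.2, 17.2, 24.2, 20.3 and 32.4 CPM in WT1 to WT5 and 12.2, 10.5, 12.4, 10.4 and 15.4 CPM in KO6 to KO10. The deepest library, WT5, was the highest, and 4 of 5 KO mice lay below every WT mouse, while KO10 lay just above WT1. WT mice averaged 21.8 ± 6.79 CPM and KO mice 12.2 ± 2.03 CPM (mean ± SD, n = 5 each), which gave a log2FC of -0.88 (standard error, SE, 0.18, 95% interval -1.25 to -0.50, adjusted p = 0.0311 from edgeR, exact two-sided permutation test over mice p = 0.0159). Reg3g ranked 123 by p among the 36715 genes. Its call was lost in 5 of the 10 fits that left out 1 mouse, in each of which 0 of all genes passed. Over the 10 fits its log2FC values were from -0.99 to -0.67.

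Reg3b had 35.1, 40.0, 62.0, 43.2 and 59.4 CPM in WT1 to WT5 and 27.2, 26.7, 27.2, 24.9 and 32.0 CPM in KO6 to KO10. All KO mice lay below all WT mice, and WT3 and WT5 stood above the other WT mice. WT mice averaged 47.9 ± 12.03 CPM and KO mice 27.6 ± 2.64 CPM (mean ± SD, n = 5 each), which gave a log2FC of -0.81 (SE 0.14, 95% interval -1.10 to -0.52, adjusted p = 0.0311 from edgeR). The exact two-sided permutation test gave p = 0.00794, the smallest that 5 against 5 mice allow. Reg3b ranked 11 by p, and the adjusted p of 0.0311 is the lowest in the fit, shared by 158 genes. Its call was lost in the same 5 fits as that of Reg3g, with log2FC values from -0.91 to -0.70 over the 10. Spread between mice was wider in WT, at a coefficient of variation of 25.1% for Reg3b and 31.1% for Reg3g, than in KO mice, at 9.55% and 16.7%.

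The 2 Reg3 genes varied together from mouse to mouse. Their log2 CPM had a Pearson r of 0.965 over the 10 mice, and of 0.905 after the mean of each genotype was removed. For each of them the other was the most alike of 10 candidate genes. The mice share genotype and library depth in both measures, and as paralogs the genes may share reads that the authors' alignment could place at either, so these values are a description.

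Reg3b had 9 peaks, 4 of which passed the filter on low counts, and Reg3g had 8 peaks, 3 of which passed. Peaks are numbered here within a gene by a running number, which was inferred from how the entries are sorted. Peak 9 of Reg3b had 51, 33, 189, 92 and 326 counts in WT1 to WT5 and 20, 14, 23, 25 and 24 counts in KO6 to KO10, and in CPM all KO mice were below all WT mice. Its mean was 12.3 ± 6.03 CPM in WT and 3.95 ± 0.966 CPM in KO mice (SD, n = 5 each), a log2FC of -1.70 (SE 0.29) with an adjusted p of 0.0563 over all 80700 peaks tested by edgeR, the lowest value in the fit, shared by 18 peaks. By p the peak ranked 18. Peak 8 of Reg3b had a log2FC of -1.43 (SE 0.29, adjusted p = 0.0636 from edgeR). Peak 6, the strongest, had 23.2 ± 3.12 CPM in WT and 16.6 ± 1.19 CPM in KO mice (SD, n = 5 each), a log2FC of -0.48 (SE 0.11, adjusted p = 0.0695 from edgeR), with all KO mice below all WT mice. Peak 4 had the other direction, with 1.54 ± 0.553 CPM in WT and 3.04 ± 0.979 CPM in KO mice (SD, n = 5 each) from between 8 and 28 counts, and a log2FC of 1.02 (SE 0.29, adjusted p = 0.105 from edgeR). Peak 4 passed the filter through the KO mice, since 5 KO and 2 WT mice were over its minimum level, and peak 8 passed through the WT mice, with 5 WT mice and 1 KO mouse over it, while every mouse was over it at peaks 6 and 9. The direction of peaks 4 and 8 is thus in part built into their selection, and their values are a description.

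Of the 3 tested peaks of Reg3g, peaks 6 and 8 had lower log2FC values than the strongest, peak 1. Peak 6 had 17, 15, 27, 41 and 160 counts in WT1 to WT5 and 9, 8, 8, 7 and 10 counts in KO6 to KO10, with a log2FC of -1.57 (SE 0.38, adjusted p = 0.0753 from edgeR). Peak 8 had 28, 19, 79, 48 and 149 counts in WT and 15, 8, 13, 16 and 15 counts in KO mice, with a log2FC of -1.30 (SE 0.27, adjusted p = 0.0667 from edgeR). In CPM, all KO mice lay below all WT mice for both peaks. All 5 WT mice were over the filter's minimum at these peaks, with 1 KO mouse at peak 6 and 4 at peak 8, so a lower level in KO mice is in part built into their selection and their values are a description. Peak 1, the strongest, had 6.78 ± 0.947 CPM in WT and 5.82 ± 0.822 CPM in KO mice (SD, n = 5 each), a log2FC of -0.23 (SE 0.16, adjusted p = 0.528 from edgeR), with 2 KO mice under all WT mice. The share of the gene's counts that fell in its strongest peak was 34.3% ± 10.9 in WT and 46.9% ± 6.64 in KO mice for Reg3g (SD, n = 5 each; exact two-sided permutation test p = 0.0794). For Reg3b it was 51.0% ± 6.81 in WT and 58.7% ± 4.27 in KO mice (SD, n = 5 each; exact two-sided permutation test p = 0.0714). Neither share passed 0.05 with all mice and all peaks, and these are 2 of 8 genes so compared, with unadjusted p. The share of Reg3g passed without WT1 (exact permutation test p = 0.0159), and that of Reg3b passed without WT2 (p = 0.0476). For Il18, Tlr4, Nfkbia, Nos2 and Stat3 the exact permutation test of the same share gave p between 0.151 and 0.944.

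From the first peak of Reg3b to the last of Reg3g, the running number holds 24 peaks of 4 gene IDs, namely Reg3b, an ID not paired with a symbol here (ENSMUSG00000079516), Reg1 and Reg3g. Of these 24 peaks, 9 passed the filter, 8 of them with a log2FC below 0 and 1, peak 4 of Reg3b, above. Of all tested peaks, 50.4% lay below 0. Peak 8 of Reg3b and peaks 6 and 8 of Reg3g passed with every WT but not every KO mouse over the filter's minimum. Peak 4 of Reg3b passed with every KO but not every WT mouse over it. The count is thus in part built into the selection and is a description. The 4 peaks of the unnamed ID together had 6.27 ± 2.76 CPM in WT and 4.75 ± 1.14 CPM in KO mice (SD, n = 5 each), a log2FC of -0.47 (SE 0.26, adjusted p = 0.243 from edgeR). Reg1, a secreted lectin of the same family, had 4.95 ± 0.0950 CPM in WT and 3.85 ± 0.732 CPM in KO mice (SD, n = 5 each), with all KO mice below all WT mice and a log2FC of -0.37 (SE 0.18, adjusted p = 0.198 from edgeR).

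**Figure D2:**
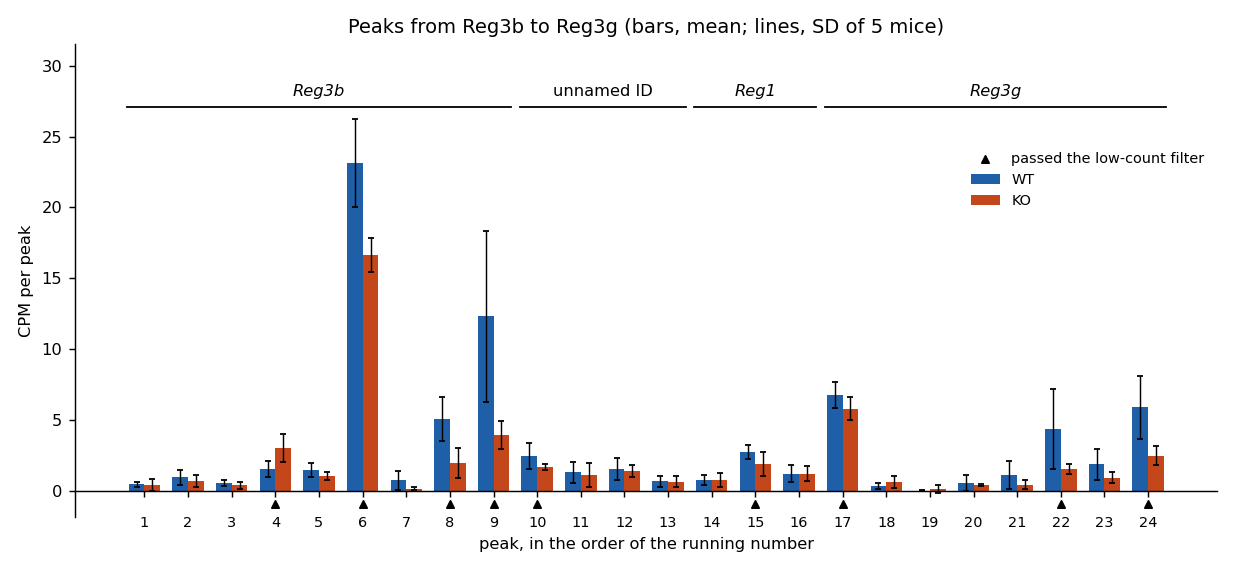
Bars give the mean CPM of each of the 24 peaks from Reg3b to Reg3g in WT and KO mice, lines the SD of 5 mice, and triangles the 9 peaks that passed the filter on low counts; the horizontal axis is the order of the peaks, not distance. Among the peaks that passed the filter, the gap between WT and KO is widest, relative to the bars, at peaks 8 and 9 of Reg3b and at the sixth and last peaks of Reg3g, and peak 4 of Reg3b is higher in KO mice. Of these 5 peaks only peak 9 of Reg3b had every mouse over the filter's minimum, while the other 4 had every mouse over it only in the genotype in which they are higher, so that those gaps are a description.

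The accessibility of the Reg3 genes moved with library depth over the 10 mice and among the WT mice, while among the KO mice the correlation was below 0 through KO10. The CPM of Reg3g had a Pearson r of 0.913 with the total counts over the 10 mice, a value reached by 0.0572% of all tested genes, and that of Reg3b had an r of 0.806, reached by 1.17%, where the median over all genes was -0.00907. Within a genotype (n = 5 each) r was 0.948 in WT and -0.605 in KO mice for Reg3g, and 0.734 in WT and -0.720 in KO mice for Reg3b. These values are a description, since depth and genotype go together over the 10 mice and both quantities come from the same libraries. Other members moved with depth too, with an r over the 10 mice of 0.889 for Nos2, 0.824 for Pigr, 0.808 for Nfkbia, 0.759 for Il18, 0.666 for Il6, 0.519 for Stat3 and -0.758 for Tlr4. For Nos2 it was 0.973 in WT and -0.898 in KO mice. The CPM of Reg3g was highest in WT5 and next in WT3, the 2 mice with the most counts (15775481 and 9677269), and the same 2 mice were highest for Reg3b. WT4, the next in depth (8677347 counts), was also next for both genes, and WT1, with 7318572 counts, lay below the shallower WT2. Among the KO mice, KO10, which had the fewest counts (4731176), was the highest for both genes. The other KO mice, in order of rising depth KO9, KO7, KO6 and KO8, had 10.4, 10.5, 12.2 and 12.4 CPM of Reg3g. For Reg3b they had 24.9, 26.7, 27.2 and 27.2 CPM. The r below 0 in KO mice thus rests on KO10 for both Reg3 genes. WT2, at the depth of the KO mice, had 17.2 CPM of Reg3g, above the highest KO mouse at 15.4 CPM, and 40.0 CPM of Reg3b, above the highest KO mouse at 32.0 CPM. With all libraries thinned at random to the smallest total, an alternative chosen after seeing the data, the log2FC was -0.84 for Reg3g and -0.72 for Reg3b, each with an adjusted p of 0.0444 from edgeR. Without WT5 the log2FC was -0.67 for Reg3g and -0.71 for Reg3b, each with an adjusted p of 0.106, the lowest in that fit, and none of the 9 genes passed. The part of depth in the difference beyond these values was not tested.

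**Figure D3:**
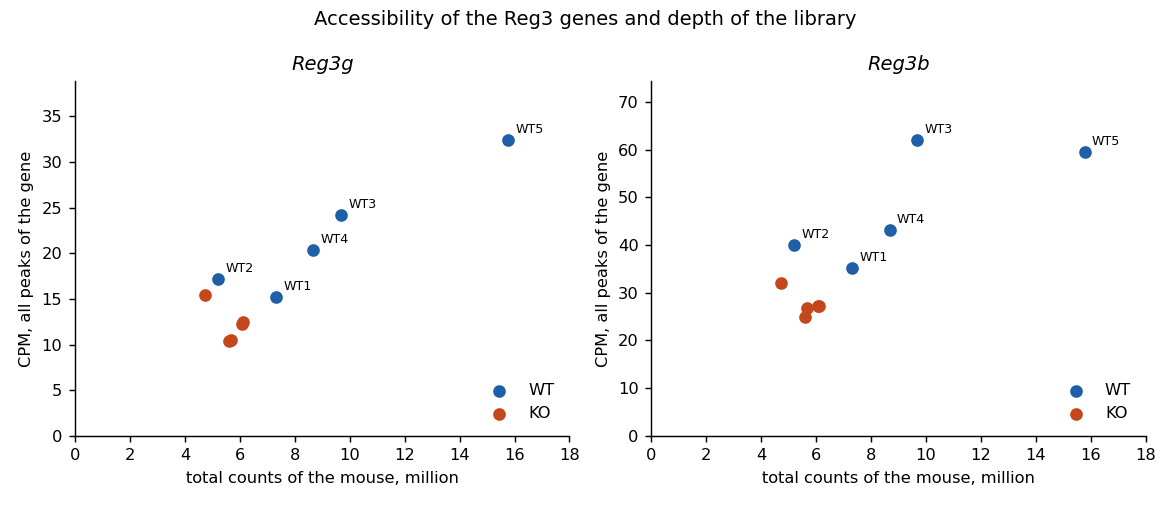
Each point is a mouse, with its total counts on the horizontal axis and the CPM of all peaks of Reg3g (left) or Reg3b (right) on the vertical axis. The KO mice sit at low depth and low CPM, WT2 lies above them at a like depth, and WT3 and WT5, the deepest libraries, have the highest CPM.

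Pigr had 75.5, 61.0, 72.5, 76.9 and 88.4 CPM in WT1 to WT5 and 49.8, 67.5, 53.5, 60.8 and 55.1 CPM in KO6 to KO10. Of the KO mice, 4 lay below every WT mouse, and KO7 lay above WT2. WT mice averaged 74.8 ± 9.80 CPM and KO mice 57.3 ± 6.94 CPM (mean ± SD, n = 5 each), which gave a log2FC of -0.39 (SE 0.10, 95% interval -0.60 to -0.19, adjusted p = 0.0406 from edgeR, exact two-sided permutation test p = 0.0159). All 6 peaks of Pigr passed the filter, and 5 of them had a log2FC below 0, from -0.38 to -0.25. The strongest, peak 3, had 42.4 ± 5.13 CPM in WT and 33.6 ± 4.26 CPM in KO mice (SD, n = 5 each), a log2FC of -0.34 (SE 0.11, adjusted p = 0.127 from edgeR). It held 58.5% ± 1.63 of the gene's counts in WT and 57.0% ± 1.12 in KO mice (SD, n = 5 each; exact two-sided permutation test p = 0.143). The call of Pigr was lost in 8 of the 10 fits that left out 1 mouse, with log2FC values between -0.46 and -0.32 over the 10 fits. Among these 8 were the fits without WT3, WT5, KO6, KO9 or KO10, in each of which 0 of all genes passed. The call was also lost with loess offsets, which remove each library's trend with abundance (-0.28, adjusted p = 0.111 from edgeR).

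Among the cytokines, Il18 (ENSMUSG00000039217, chr9:50554700-50581841), which encodes a cytokine of the IL-1 family that epithelial cells make in advance and release after cleavage, had 20.01, 19.4, 24.7, 19.6 and 23.0 CPM in WT1 to WT5 and 17.5, 18.3, 17.3, 15.7 and 15.2 CPM in KO6 to KO10. All KO mice lay below all WT mice. WT mice averaged 21.3 ± 2.37 CPM and KO mice 16.8 ± 1.32 CPM (mean ± SD, n = 5 each), which gave a log2FC of -0.35 (SE 0.11, 95% interval -0.57 to -0.13), and the adjusted p of 0.0620 from edgeR missed the threshold, while the exact two-sided permutation test gave p = 0.00794. All 3 of its peaks were tested, with log2FC values of -0.44, -0.24 and -0.05.

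Il6 (ENSMUSG00000025746, chr5:30013114-30019975), the cytokine that acts on Stat3, was thinly covered, with between 14 and 89 counts per mouse. It had 3.87, 4.85, 5.04, 4.38 and 5.32 CPM in WT1 to WT5 and 4.34, 2.62, 2.86, 3.46 and 3.12 CPM in KO6 to KO10, so that 4 of 5 KO mice lay below every WT mouse and KO6 lay within the WT range. The log2FC was -0.52 (SE 0.20, 95% interval -0.94 to -0.11, adjusted p = 0.109 from edgeR, exact two-sided permutation test p = 0.0159). Of its 3 peaks 1 passed the filter, with a log2FC of -0.13 (SE 0.31).

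Tlr4 (ENSMUSG00000039005, chr4:66827551-66846581), the receptor for bacterial lipopolysaccharide, was the 1 gene with more accessibility in KO mice by its mean. It had 5.60, 6.87, 4.94, 4.50 and 3.53 CPM in WT1 to WT5 and 8.19, 5.61, 6.39, 7.08 and 9.98 CPM in KO6 to KO10, from between 30 and 59 counts per mouse. Of the KO mice, 3 lay above every WT mouse and 2 within the WT range. The log2FC was 0.60 (SE 0.20, 95% interval 0.17 to 1.02, adjusted p = 0.0809 from edgeR, exact two-sided permutation test p = 0.0317). Of 8 peaks 1 passed the filter, peak 8, which had 17, 13, 22, 16 and 32 counts in WT1 to WT5 and 24, 17, 19, 24 and 20 counts in KO6 to KO10. In CPM every KO mouse was above every WT mouse at this peak, and its log2FC was 0.87 (SE 0.22, adjusted p = 0.0800 from edgeR).

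Of the intracellular signalling genes, Stat3 (ENSMUSG00000004040, chr11:100886806-100939594), the transcription factor downstream of IL-6 and related cytokines, had 37.6, 38.2, 38.3, 37.1 and 39.3 CPM in WT1 to WT5 and 29.1, 36.8, 29.9, 35.1 and 32.6 CPM in KO6 to KO10. The WT mice had a coefficient of variation of 2.19%, and all KO mice lay below them. The log2FC was -0.22 (SE 0.09, 95% interval -0.40 to -0.04, adjusted p = 0.114 from edgeR, exact two-sided permutation test p = 0.00794). Of its 9 peaks 6 were tested, 5 with a log2FC below 0, and the lowest was peak 9 at -0.84 (SE 0.26, adjusted p = 0.130 from edgeR), with all KO mice below all WT mice and between 5 and 46 counts. At peak 9 all 5 WT mice and 1 KO mouse were over the filter's minimum. A lower level in KO mice is thus in part built into its selection, and its values are a description.

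Nfkbia (ENSMUSG00000021025, chr12:55489409-55492647) had between 588 and 2983 counts per mouse. It had 136, 140, 145, 133 and 178 CPM in WT1 to WT5 and 116, 148, 142, 124 and 122 CPM in KO6 to KO10, and the genotypes overlapped. The log2FC was -0.17 (SE 0.09, adjusted p = 0.241 from edgeR, exact two-sided permutation test p = 0.135), and its 95% interval from -0.37 to 0.03 bounds the change. Without WT5 it was -0.08, and over the 10 fits that left out 1 mouse it ranged from -0.22 to -0.08. All 10 of its peaks were tested, with log2FC values from -0.60 to 0.10, 8 of them below 0, and the strongest peak was at 0.02.

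Nos2 (ENSMUSG00000020826, chr11:78920787-78960226), the inducible nitric oxide synthase, had 45.2, 42.2, 56.6, 57.2 and 73.6 CPM in WT1 to WT5 and 40.1, 40.8, 39.5, 47.9 and 51.1 CPM in KO6 to KO10. The 3 deepest WT libraries lay above all KO mice and the 2 shallower ones within the KO range. The log2FC was -0.34 (SE 0.13, 95% interval -0.61 to -0.08, adjusted p = 0.103 from edgeR, exact two-sided permutation test p = 0.103). Without WT5 it was -0.20, and without WT2 it was -0.42 with an adjusted p of 0.0401. Of its 13 peaks 6 were tested, 5 of them with a log2FC below 0, the lowest at -0.72 in peak 7.

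**Figure D4:**
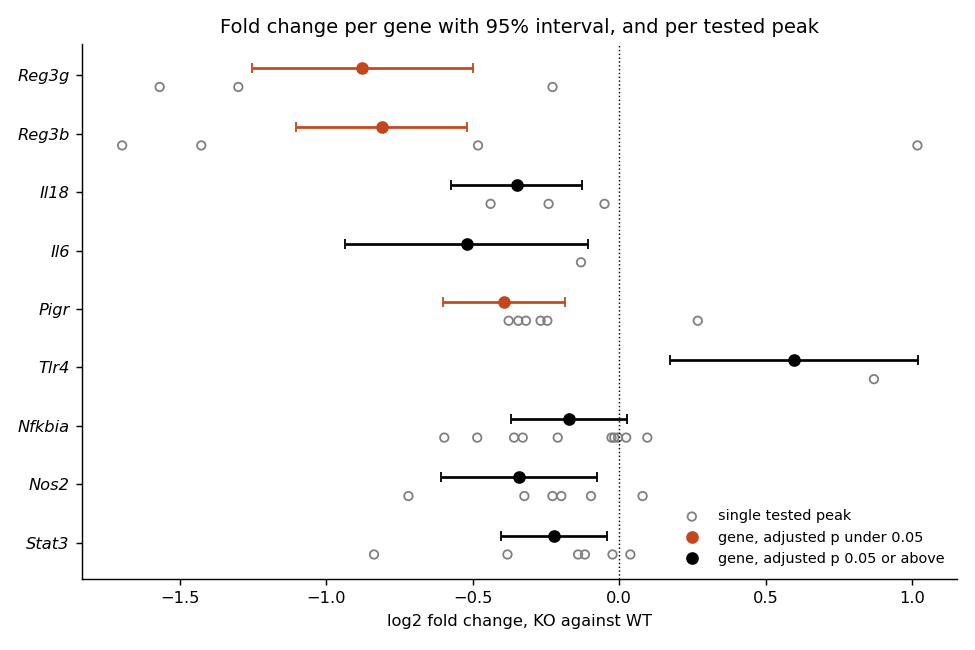
The horizontal axis gives the log2 ratio of KO to WT for the summed peaks of each of the 9 genes (filled points, with the 95% interval) and for each tested peak (open circles). Reg3g, Reg3b and Pigr, in orange, passed an adjusted p of 0.05, and the open circles of Reg3b run from -1.70 to 1.02.

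Over all 9 genes, 40 of the 69 peaks passed the filter on low counts. Of these 40 peaks, 33 had a log2FC below 0 and 7 above, where 50.4% of all tested peaks lay below 0, and the median was -0.23 against -0.00245 over all peaks. No peak of the 9 genes, and none of all 80700 (0% in either direction), passed an adjusted p of 0.05 in edgeR, while 12825 peaks had an unadjusted p under 0.05 and DESeq2 called 5 peaks of the 9 genes, all of Reg3b or Reg3g and all lower, where it called 0.0867% of all peaks lower and 0.622% higher. At an unadjusted p under 0.05, 11 of the 40 were lower and 2 were higher, against 5.59% and 10.3% of all peaks. All KO mice lay below all WT mice at 5 of the 40 peaks, 2 each of Reg3b and Reg3g and 1 of Stat3, and above them at 1, of Tlr4, against 1.18% and 1.83% of all peaks. The filter itself bears on these counts, since it asks for a minimum level in as many mice as a group holds and a peak can pass through 1 genotype. Every mouse of both genotypes was over that minimum at 27 of the 40 peaks. At 5 peaks every WT mouse was over it and not every KO mouse, and these were peak 8 of Reg3b, peaks 6 and 8 of Reg3g, peak 9 of Stat3 and peak 3 of Nos2. At peak 4 of Reg3b it was every KO mouse and not every WT mouse. So 3 of the 6 peaks without overlap between the genotypes, those of Reg3g and Stat3, passed with every WT mouse but not every KO mouse over it, and the counts over the 40 peaks are given as a description. The peaks without overlap that every mouse carried over the minimum were peaks 6 and 9 of Reg3b and peak 8 of Tlr4.

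Fold changes in these data depended on abundance. The median log2FC over all genes was 0.34 in the lowest and -0.12 in the highest of 10 equal groups of genes by mean abundance. Beside this trend, the median of genes of like abundance was -0.08 for Reg3g and Il18, -0.12 for Reg3b, Nos2, Stat3, Pigr and Nfkbia, 0.14 for Tlr4 and 0.23 for Il6. Within its group of like abundance, 0.136% of genes had a lower log2FC than Reg3g, 0.0272% than Reg3b and 0.490% than Pigr. The share was 1.31% for Il6, 2.48% for Nos2 and 4.85% for Il18, which did not pass the test. For Tlr4, 90.8% of the genes of its group were lower. For Nfkbia the share was 28.5% and for Stat3 19.1%, so both lay among the bulk of genes of like abundance. With loess offsets the log2FC was -0.86 for Reg3g, -0.70 for Reg3b, -0.80 for Il6, 0.41 for Tlr4, -0.30 for Il18, -0.28 for Pigr, -0.22 for Nos2, -0.12 for Stat3 and -0.07 for Nfkbia.

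**Figure D5:**
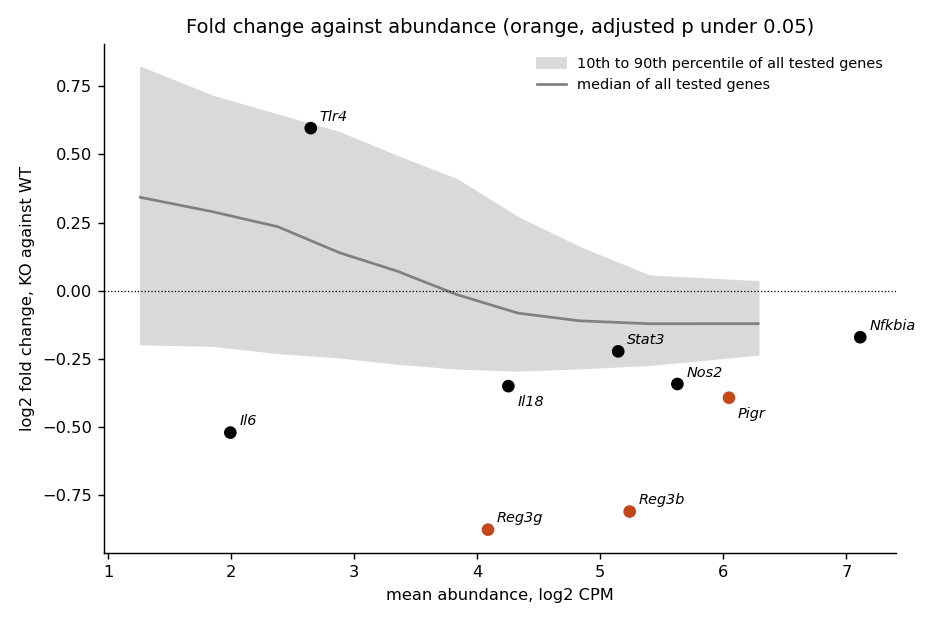
Each point is a gene, with its mean abundance as log2 CPM on the horizontal axis and its log2 ratio of KO to WT on the vertical axis; the grey line and band give the median and the 10th to 90th percentile of all tested genes in 10 groups of like abundance. Reg3g and Reg3b lie far under the band, and Tlr4 lies at its upper edge.

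Some mice stood out across genes. WT5 had the highest CPM for 6 of the 9 genes and the lowest for 1, Tlr4, WT3 had the highest for 2 and KO10 for 1, Tlr4. WT2, at the depth of the KO mice, lay above every KO mouse for 5 of the 9 genes and below every KO mouse for none. Each of these counts rests on a single library, and the shares over all genes were not computed, so the counts are a description. Leaving out KO7, which had the highest KO value for Pigr, Il18, Nfkbia and Stat3, gave a log2FC of -0.83 for Reg3g, -0.81 for Reg3b and -0.46 for Pigr, and all 3 genes passed, as 1.65% of all genes did as lower. Of the other fits that left out a KO mouse, 2 of the 9 genes passed without KO8, where 0.439% of all genes passed as lower, and 0 without KO6, KO9 or KO10.

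The genes most alike in their pattern over the 10 mice, among 10 candidates, were by Pearson r of log2 CPM Reg3b for Il18 (0.876) and Il6 (0.794), Reg3g for Nos2 (0.856), Stat3 and Pigr for each other (0.867) and Pigr for Nfkbia (0.736). Tlr4 had no alike gene, its highest r being -0.14, with Aim2. After the mean of each genotype was removed, r was 0.610 for Il18 with Reg3b, 0.402 for Il6 with Reg3b, 0.820 for Nos2 with Reg3g, 0.679 for Stat3 with Pigr and 0.629 for Nfkbia with Pigr. All these mice share their genotype and depth in both measures of a pair.

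Of 124 other symbols of the same pathways, in lists of antimicrobial and Reg genes, Toll-like receptor signalling, NF-kappaB, the inflammasome, IL-6 and STAT3, and IgA transport with nitric oxide, 2 could be paired with a gene ID, Reg1 and Aim2, and 0 of these 2 passed an adjusted p of 0.05. Aim2, a sensor of cytosolic DNA, had 13.0 ± 5.42 CPM in WT and 10.9 ± 2.61 CPM in KO mice (SD, n = 5 each), a log2FC of -0.25 (SE 0.23, adjusted p = 0.483 from edgeR, exact two-sided permutation test p = 0.524). At an unadjusted p under 0.05, neither of them passed, with values of 0.0587 for Reg1 and 0.289 for Aim2 in edgeR's test across all genes.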

How the data were processed

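ATAC-seq was measured in purified IECs of 5 WT and 5 KO mice, with groups and mouse numbers as the sample labels give them. The authors deposited raw counts per peak for 1 peak set shared by all mice, with a gene ID per peak, and 10 columns of normalized values, which were not used here. The submitters' processing notes name the build mm10. The rule that ties peaks to genes, the peak caller and aligner, and any removal of duplicates or shift for the transposase are not given in the sources used here, and a gene's sum depends on them. Of 246501 entries, 22 were empty and 594 peaks without a gene ID (0.612 to 0.965% of counts) were left out.

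Counts were tested per gene (36715 of 44580 passed filterByExpr) and per peak (80700 of 245885) with edgeR 4.0.16 (glmQLFit, glmQLFTest, TMM) under R 4.3.3, with Benjamini-Hochberg adjustment. TMM factors were computed apart for genes and for peaks, so the fold change of a gene and those of its peaks rest on different scaling. Single values were compared by exact two-sided permutation over mice (log2 CPM, prior count 2), and shares in the strongest peak only for genes with at least 20 counts in every mouse, without adjustment over them. Standard errors (SE) are the log2 fold change divided by the root of F. Alternatives were DESeq2 1.42.0, library totals, loess offsets (span 0.3), no filter, at least 10 counts in every mouse, 1 surrogate variable (sva 3.50.0), a prior count of 0.5, the strongest peak in place of the sum, and leaving out each mouse. The fits were tested on simulated data. Tables used Python 3.11.15, pandas 2.3.3, scipy 1.17.1 and biopython 1.88.

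The members and lists were chosen with earlier results of these data known. All 10 members are named, and of each list the gene of lowest p that could be paired. Reg1 and Aim2 were paired through the study's table of transcripts that differed between genotypes, so they are not independent. Replicate mice are separate animals per the labels' numbering, and depth limits the precision of genes with few counts.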

Additional observations from a re-analysis of the deposited data

Results flagged for a closer look

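Among the 5 WT mice, the log2 CPM of Nfkbia was 7.48 in WT5 and between 7.06 and 7.18 in the other WT mice. This mouse stood apart from the rest of its group by Dixon's test, with a gap to the nearest mouse of 0.712 of the whole range against a critical value of 0.71. Of 34 groups tested over 17 measures, this was the 1 group in which a mouse stood apart, where chance alone gives about 1 in 20. WT5 was also the library with the most counts. The part of depth in this value was not tested.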

How the results depend on the processing

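Of the 9 genes, 3 passed an adjusted p of 0.05, against 1 with 1 surrogate variable and between 0 and 6 with 1 mouse left out (0 without WT3, WT5, KO6, KO9 or KO10 and 6 without WT2). Of the peaks, 0 passed, against 5 with DESeq2 (all lower, where 0.0867% of all peaks were called lower), 5 with no filter on low counts (all lower, 0.0903%), 3 with at least 10 counts in every mouse (2 lower, 0.103%, and 1 higher, 1.44%) and between 0 and 7 with 1 mouse left out. Those were 3 without WT1 (all lower, 0.019%) and 7 without WT2 (5 lower, 0.276%, and 2 higher, 1.98%). Reg3g lost its call with 1 surrogate variable (-0.82, adjusted p = 0.0535) and with its strongest peak in place of the sum (-0.23), and Reg3b with its strongest peak (-0.48). Pigr lost its call with library totals (-0.40), loess offsets (-0.28), 1 surrogate variable (-0.31), thinned counts (-0.41, chosen after seeing the data) and its strongest peak (-0.34). The values of the strongest peak come from the fit per peak, where 0 of all 80700 peaks passed. No call could therefore be kept in that setting, and its losses are no test of these genes. With 1 mouse left out, the log2 fold change ranged from -0.99 to -0.67 for Reg3g and from -0.91 to -0.70 for Reg3b, each with its call lost in 5 of 10 fits. It ranged from -0.46 to -0.32 for Pigr, with its call lost in 8. For Il18 it ranged from -0.39 to -0.29, for Tlr4 from 0.47 to 0.70 and for Nos2 from -0.42 to -0.20, and all 3 passed without WT2. Nfkbia had a log2 fold change of the other sign with its strongest peak (0.0238, SE 0.117). That value comes from the fit per peak, whose TMM factors differ from those of the fit per gene. The causes were not tested. The difference in the share of counts in the strongest peak, KO minus WT in percentage points, was 17.3 for Reg3g, against 12.6, and 1.09 for Stat3, against -0.22, when only peaks past the filter were counted. This setting keeps peaks 6 and 8 of Reg3g and peak 9 of Stat3, which passed with every WT but not every KO mouse over the minimum, so it is no test of the share. With 1 mouse left out it ranged from 9.33 to 16.8 for Reg3g, 5.35 to 9.46 for Reg3b, -0.961 to 2.35 for Il18, -2.14 to -1.11 for Pigr, 4.73 to 8.98 for Tlr4 and -2.17 to 1.14 for Stat3. It passed 0.05 in the exact permutation test without WT1 for Reg3g (p = 0.0159), and without WT2 for Reg3b, WT4 for Pigr and WT5 for Tlr4 (p = 0.0476 each). Over all genes, 369 were called lower and 1065 higher, against 1124 and 2186 without WT2 and 0 in each of the 5 fits that called none of the 9. No paired analysis was possible because no replicate number occurs in both genotypes.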
